A study of Mus musculus with 2 samples.

Results

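The cells described here are the non-neural cells of the embryonic cortex that carry collagen, endothelial or pericyte transcripts, taken from the dorsal telencephalon of wild-type (WT) mouse embryos of the EomesDot line at embryonic day 14.5. Barcodes were retained that had 1000 or more detected genes and whose unique molecular identifiers (UMIs, the tags that mark single captured transcripts) were no more than 10% mitochondrial. Of these, cells were selected that had at least 3 UMIs of Col3a1, 3 of Cldn5 or 5 of Rgs5, and no more than 2 UMIs of each of the neural pairs Neurod2 with Neurod6, Sox9 with Eomes and Gad1 with Gad2. In total 80 of 3182 retained cells were selected. Both libraries, replicate 2 and replicate 4, belonged to the same WT group and came from papain-dissociated tissue on the 10x Genomics 3′ platform, and the tissue is labelled brain hemispheres. Nothing in the labels states whether each library came from a separate embryo, so all p-values below measure only the spread between these 2 libraries.

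The meninges, of which the pia lies directly on the brain surface, are built from fibroblasts that secrete fibrillar collagens and the outer part of the pial basement membrane. They are also known as a source of secreted signals for the underlying cortex. Endothelial cells line the vessels that grow into the cortex from the surface, and under Wnt signalling they acquire the transporters and tight junctions of the blood-brain barrier. Mural cells, that is pericytes on capillaries and smooth muscle cells on larger vessels, are recruited to endothelium by platelet-derived growth factor B.

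The selection left 4 sets of cells. The Col3a1 threshold alone was passed by 45 cells (15 in replicate 2 and 30 in replicate 4), hereafter Col3a1 cells. The Cldn5 threshold was passed by 17 cells (5 and 12), hereafter Cldn5 cells, none of which passed another threshold. The Rgs5 threshold alone was passed by 9 cells (4 and 5), hereafter Rgs5 cells, and a further 9 cells (3 and 6) passed the thresholds of Col3a1 and Rgs5 together, hereafter Col3a1/Rgs5 cells. Relative to all retained cells, Col3a1 cells made up 1.24% of replicate 2 (exact 95% confidence interval 0.695 to 2.03%) and 1.52% of replicate 4 (1.03 to 2.17%). For Cldn5 cells the shares were 0.413% (0.134 to 0.961%) and 0.609% (0.315 to 1.06%), and for Rgs5 cells 0.330% (0.0901 to 0.844%) and 0.254% (0.0824 to 0.591%). The intervals of both libraries overlapped for each set. Intervals cover counting error only.

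The genes of the rule are described without a test because they chose the cells. Among the retained cells within the neural limit, the lowest selected cell had 9 Col3a1 UMIs in replicate 2 and 4 in replicate 4, and the highest cell under the threshold had 2 and 1. For Cldn5 the lowest members had 6 and 4 UMIs and the highest cells outside 2 and 1. For Rgs5 these values were 6 and 7 UMIs inside, and 2 and 3 outside. The limit on neural genes removed 11 cells that passed the Col3a1 threshold (4 in replicate 2 and 7 in replicate 4), 2 that passed that of Cldn5 (both in replicate 2) and 4 that passed that of Rgs5 (2 in each). Levels are given below as UMIs of a gene per 1000000 UMIs (CPM) of all cells of a set in a library, replicate 2 first. Col3a1 stood at 2249 and 2777 CPM in Col3a1 cells, at 580 and 296 CPM in Col3a1/Rgs5 cells and at 2.25 and 6.69 CPM in the other retained cells. Cldn5, a tight junction protein, stood at 2297 and 2229 CPM in Cldn5 cells. Rgs5, a regulator of G protein signalling in pericytes, stood at 1333 and 2499 CPM in Rgs5 cells and at 5241 and 2983 CPM in Col3a1/Rgs5 cells.

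**Figure D1:**
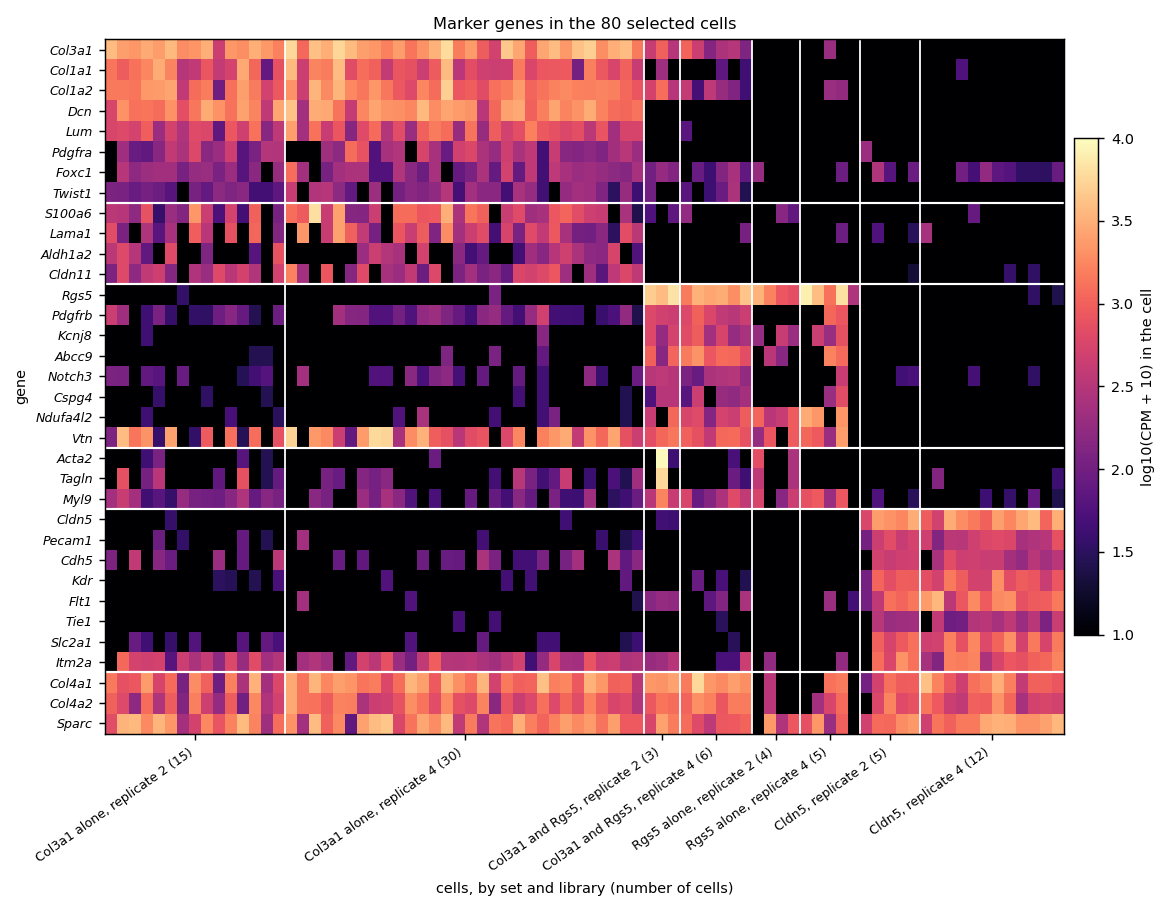
Each column is 1 of the 80 selected cells, grouped by set and library, and each row is a marker gene, with colour giving log10(CPM + 10) in the cell. Fibroblast genes fill the Col3a1 cells, endothelial genes the Cldn5 cells and pericyte genes the Col3a1/Rgs5 cells. Rgs5 cells are sparser. Beside Rgs5, most of them hold Ndufa4l2, Vtn, Myl9 and Sparc (7 of 9 each) and Kcnj8 (6 of 9), with Pdgfrb in 2 of 9.

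The labels were compared with marker lists from which the selecting gene had been left out. The 13 other genes of the fibroblast list summed to 6026 and 6344 CPM in Col3a1 cells, against 86.0 and 65.1 CPM in Cldn5 cells. The 15 other endothelial genes summed to 7478 and 7872 CPM in Cldn5 cells and to 339 and 592 CPM in Col3a1 cells. The 13 other mural genes summed to 5205 and 4994 CPM in Col3a1/Rgs5 cells, to 1913 and 3110 CPM in Rgs5 cells and to 58.6 and 84.1 CPM in Cldn5 cells. In Col3a1 cells they summed to 1312 and 2057 CPM, so Rgs5 cells stood apart from Col3a1 cells far less than from Cldn5 cells. The 13 fibroblast genes summed to 2415 and 566 CPM in Col3a1/Rgs5 cells. These sums describe the chosen cells. Again without the selecting genes, in 44 of 45 Col3a1 cells the fibroblast list held the most UMIs of the 3 lists, in 17 of 17 Cldn5 cells the endothelial list did, and in 8 of 9 cells of each Rgs5-positive set the mural list did. The exception among the Rgs5 cells was a cell of replicate 4 with 29234 UMIs, of which 76 fell on the neuron list and 0 on the mural genes besides Rgs5. It supplied 54.1% of the UMIs of the 5 Rgs5 cells of that library, so that genes absent from it stand 2.18 times higher there without it. The mural sum of the remaining 4 cells was 6777 CPM, above the 4994 CPM of the Col3a1/Rgs5 cells, and their Rgs5 level was 5123 CPM. Both values rested mostly on 1 of the 4, a cell with 12114 UMIs. It held 193 of the 303 mural UMIs of that library's 5 Rgs5 cells, Rgs5 included, and 80 of its 193 were Rgs5.

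Depth and RNA quality differed between the sets. Replicate 2 held 1712 barcodes with 40267872 UMIs and replicate 4 held 2589 barcodes with 49422007 UMIs, and the retained cells had medians of 30872 and 23007 UMIs. The median depth of Col3a1 cells was 39628 and 27313.5 UMIs, and that of Cldn5 cells 36876 and 31885 UMIs. Rgs5 cells were far shallower, with medians of 6686.5 and 5411 UMIs, whereas Col3a1/Rgs5 cells had 29054 and 40406.5 UMIs. All 4 Rgs5 cells of replicate 2 had less than 0.2% mitochondrial UMIs, and ribosomal protein genes made up 37.1% of their UMIs. In replicate 4 this held for 1 of 5 Rgs5 cells, and ribosomal protein genes took 9.46%. Across all sets 7 of 80 selected cells lay under 0.2% mitochondrial UMIs (4 and 3), against 83 of the 3182 retained cells (38 and 45). The comparisons with Rgs5 cells below therefore rest on 9 cells, 3 of them above 10000 UMIs and 5 with almost no mitochondrial RNA, and in replicate 4 mostly on the cell with neuron markers.

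**Figure D2:**
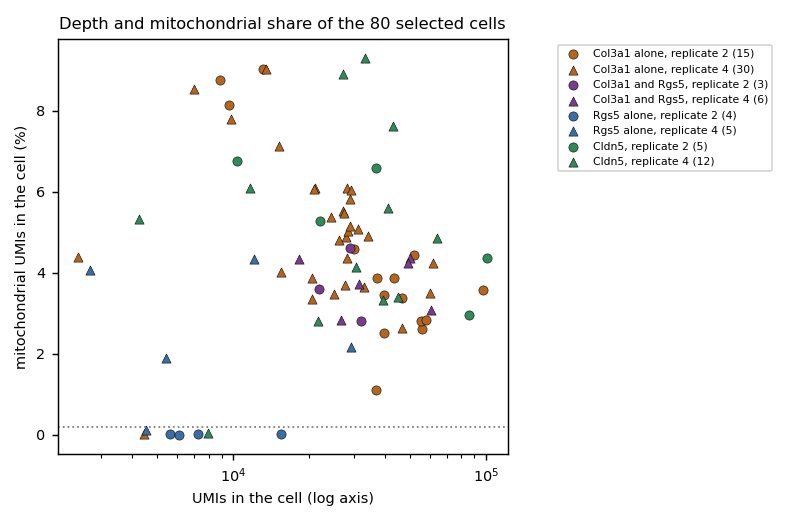
Each point is 1 of the 80 selected cells, with its UMIs on a log axis and the percentage of mitochondrial UMIs, coloured by set and shaped by library, and the dotted line marks 0.2%. The 4 Rgs5 cells of replicate 2 lie on the floor of the plot, and no Col3a1/Rgs5 cell lies under the line.

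The neuron, red blood cell, choroid plexus and hem, macrophage and neural crest glia lists were compared with the own list of each cell. The radial glia list was not among them. It held 14 UMIs, against 12 of the fibroblast list, in a Col3a1 cell of replicate 4 with 4458 UMIs. Of the lists compared, 1 stood above the own list in 3 of the 80 cells. A Cldn5 cell of replicate 2 with 10393 UMIs held 189 UMIs of choroid plexus and cortical hem genes and 13 of endothelial genes. An Rgs5 cell of replicate 4 with 29234 UMIs held 76 UMIs of neuron genes and 8 of mural genes, all 8 of them Rgs5. A Cldn5 cell of replicate 4 with 44925 UMIs held 17717 UMIs of red blood cell genes, 39.4% of its total, beside 240 of endothelial genes. Of the macrophage list, C1qa, C1qb, C1qc, Aif1, Tyrobp and Ptprc were at 0 in all 80 cells, and the summed level of its 11 genes ranged from 0 to 37.0 CPM over the sets. The neural crest glia list summed to at most 18.5 CPM in any set. No selected cell was called a doublet.

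To compare the groups, UMIs were summed per set and library and 9380 genes were tested with edgeR, without the 9 genes of the rule and without the Col3a1/Rgs5 cells. All other genes were measured in the cells that the rule had chosen, so these tests describe the chosen groups and give no independent evidence that such groups exist. Of the 215 list genes tested, 47 reached the count level of the test only with the Col3a1 cells, 40 only with the Cldn5 cells and 14 only with the Rgs5 cells. For such a gene a higher level in that group was built into the testing, and its fold and p-value below are a description. Between Col3a1 and Cldn5 cells, 927 genes were higher in Col3a1 cells (9.88% of the genes tested) and 867 were higher in Cldn5 cells (9.24%) at an adjusted p-value under 0.05. Between Rgs5 and Cldn5 cells, 95 genes were higher in Rgs5 cells (1.01%) and 240 in Cldn5 cells (2.56%). Between Col3a1 and Rgs5 cells, 96 genes were higher in Col3a1 cells (1.02%) and 43 in Rgs5 cells (0.458%), and with the library as a block the total rose from 139 to 244. If the 9 Col3a1/Rgs5 cells were assigned to the gene with the higher ratio of UMIs to its threshold, which moved 8 of them into the Rgs5 group, the counts became 2064, 1187 and 731 genes, with 545 higher and 642 lower in the Rgs5 against the Cldn5 comparison. When the 3 cells with more markers of another type were left out, the counts were 2159, 381 and 185. When the 7 cells under 0.2% mitochondrial UMIs were left out they were 2389, 642 and 409, and the Rgs5 group then had cells in replicate 4 alone, so that it was assumed to vary between libraries like the other groups. With DESeq2's size factors in place of TMM the median log2 fold change over all genes moved from -0.43 to -0.26 for Rgs5 against Cldn5 cells and from 0.57 to 0.39 for Col3a1 against Rgs5 cells.

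Fibroblast genes marked the Col3a1 cells. Col1a1, Col1a2, Dcn and Lum, which encode fibrillar collagen chains and small proteoglycans of the matrix, were detected in 45 of 45 Col3a1 cells. Dcn stood at 1774 and 1857 CPM and had no UMI in Cldn5, Rgs5 or Col3a1/Rgs5 cells. The fold between Col3a1 and Cldn5 cells was at least 379, with Cldn5 cells set to a floor of 3 UMIs over the group. In the other retained cells, with medians of 30837.5 and 22926.5 UMIs, 105 of 3102 held a Dcn UMI. Pdgfra, a receptor of fibroblasts for platelet-derived growth factor A, stood at 242 and 270 CPM in Col3a1 cells. Of the 13 fibroblast genes other than Col3a1, 12 could be tested, and 12 were higher in Col3a1 than in Cldn5 cells. Of these, 11 would not have reached the count level of the test without the Col3a1 cells, so their count is a description and no support, and the exception was Foxc1. Foxc1, a forkhead factor that meningeal development requires, was shared with the other sets. It stood at 144 and 183 CPM in Col3a1 cells, 62.5 and 54.2 CPM in Cldn5 cells and 133 and 106 CPM in Col3a1/Rgs5 cells, and its log2 fold change between Col3a1 and Cldn5 cells was 1.40 ± 0.36 (SE, edgeR adjusted p = 0.0208). Against Rgs5 cells 6 of the 12 genes were higher, namely Col1a1, Col1a2, Dcn, Lum, Pdgfra and Col6a3, and 0 were lower.

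Genes known from different meningeal layers were found in the Col3a1 cells. S100a6, a calcium-binding protein, stood at 399 and 662 CPM and was detected in 41 of 45 cells, and Lama1, a laminin chain of the pial basement membrane, at 306 and 469 CPM in 37 of 45. Lama1 was higher than in Cldn5 cells by 5.80 ± 0.57 on the log2 scale (edgeR adjusted p = 0.000195). All 4 pial genes (with Ngfr and Rdh10) were higher in Col3a1 than in Cldn5 cells, although all 4 entered the test only with the Col3a1 cells, and 2 of 4, S100a6 and Lama1, were higher than in Rgs5 cells. Of the arachnoid list, 3 of 5 genes could be tested, each only with the Col3a1 cells, and 3 were higher than in Cldn5 cells. Aldh1a2, the enzyme that makes retinoic acid, stood at 196 and 157 CPM and was found in 26 of 45 Col3a1 cells (40% and 39.3% after thinning each cell to 5000 UMIs), in no other selected cell and in 11 of 3102 other retained cells. Crabp2, which carries retinoic acid to the nucleus, was found in 21 of 45 cells at 156 and 42.6 CPM. Cldn11, a claudin of the arachnoid barrier, stood at 319 and 306 CPM in 38 of 45 cells. In replicate 2, 75 of the 122 Aldh1a2 UMIs lay in 1 cell, without which the level was 89.4 CPM. Slc47a1 had no UMI in any selected cell and Cdh1 was found in 3 Col3a1 cells of replicate 2 alone. Of the dural list, 2 of 4 genes could be tested. Foxp1 stood at 518 and 453 CPM in Col3a1 cells against 1000 and 944 CPM in Cldn5 cells, and Fxyd5 was lower in Col3a1 cells (33.7 and 2.58 against 102 and 117 CPM).

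Some Col3a1 cells had little or no Vtn, Lama1 and Bmp6. Among the 35 Col3a1 cells with at least 20000 UMIs, 6 had at most 1 Vtn, 2 Lama1 and 2 Bmp6 UMIs, 5 of them among the 12 such cells of replicate 2 and 1 among the 23 of replicate 4. They were picked after the values had been seen, so they are described without a test. In the other 29 such cells the medians were 45 UMIs of Vtn (a matrix glycoprotein), 12 of Lama1 and 11 of Bmp6. Of the 6, 3 cells of replicate 2 held 20 to 22 UMIs of Foxd1 (a forkhead factor of mesenchyme), 16 to 104 of Angpt1, 9 to 40 of Ogn and 3 to 48 of Rspo2, a Wnt agonist that was at 0 or 1 in all 29 others. These 3 cells also had 17 to 29 UMIs of Cldn11 and 13 to 28 of Rarb. The remaining 3 (2 of replicate 2 and 1 of replicate 4) held 23 to 125 UMIs of Slit2, a repulsive guidance ligand with a median of 0 in the 29 others, together with 22 to 87 UMIs of the transcription factor gene Ebf1 and 0 to 1 UMI of Angpt1. Slit2 was also found in the first 3 cells, at 5 to 65 UMIs. All 6 had 14 or more Col3a1, 4 or more Col1a2 and 21 or more Dcn UMIs. Group levels of these genes differed between the libraries, with Angpt1 at 237 CPM in replicate 2 and 41.3 CPM in replicate 4, and Vtn at 751 and 1443 CPM.

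**Figure D3:**
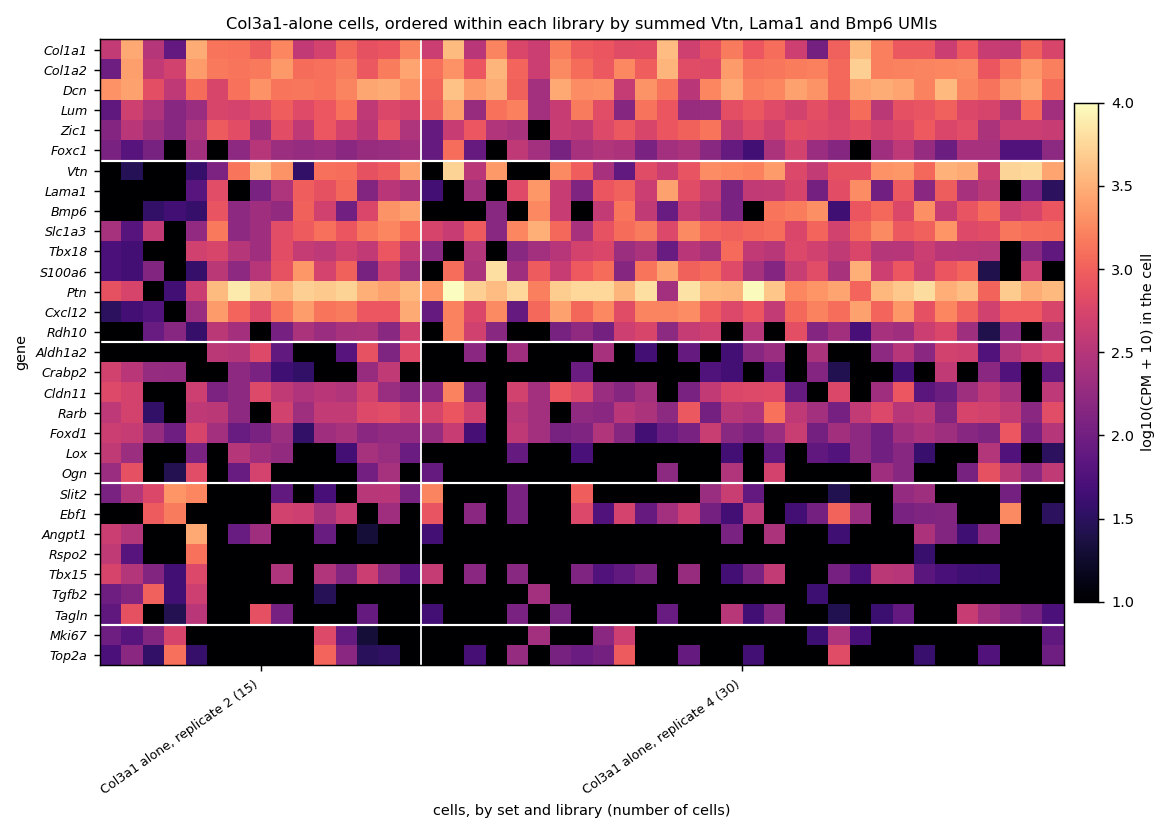
Each column is 1 of the 45 Col3a1 cells, ordered within each library from the lowest to the highest sum of Vtn, Lama1 and Bmp6 UMIs, and colour gives log10(CPM + 10) of each gene in the cell. Columns at the left of replicate 2 are dark for Vtn, Lama1 and Bmp6 and bright for Slit2, Tbx15 or Angpt1, and most, though not all, keep bright Col1a2 and Dcn.

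Col3a1 cells held transcripts of many secreted signals. Of the 25 ligand genes listed, 23 could be tested and 12 were higher in Col3a1 than in Cldn5 cells, namely Cxcl12, Bmp4, Bmp5, Bmp6, Bmp7, Wnt5a, Wnt6, Ptn, Mdk, Sema3a, Angpt1 and Vegfa, while Pdgfb and Tgfb1 were lower. Of the 23, 9 entered the test only with the Col3a1 cells and 2, Pdgfb and Tgfb1, only with the Cldn5 cells. Cxcl12, the meningeal chemokine that guides Cxcr4-bearing migrating neurons, stood at 918 and 1086 CPM and was present in 44 of 45 Col3a1 cells. It stood at 10.8 and 18.8 CPM in the other retained cells and had no UMI in Rgs5 or Col3a1/Rgs5 cells. In Cldn5 cells it stood at 3.91 and 51.5 CPM from 3 cells, and its log2 fold change between Col3a1 and Cldn5 cells was 4.93 ± 0.82 (edgeR adjusted p = 0.00294).

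Bone morphogenetic protein genes followed the same split. Bmp6 stood at 537 and 656 CPM in Col3a1 cells, and Cldn5 and Rgs5 cells had no UMI, so that the fold was at least 126 against Cldn5 and at least 17.8 against Rgs5 cells. Bmp7 stood at 225 and 333 CPM in Col3a1 cells and at 7.81 and 2.71 CPM in Cldn5 cells. Bmp5 stood at 75.4 and 239 CPM in Col3a1 cells and was also found in Col3a1/Rgs5 cells at 109 and 131 CPM. The heparin-binding growth factor gene Ptn (pleiotrophin) was present in 44 of 45 Col3a1 cells at 2638 and 3892 CPM. Cldn5 cells had 11.7 and 5.42 CPM of Ptn, a log2 fold change of 8.53 ± 0.90 (edgeR adjusted p = 0.000232), and Rgs5 cells had 290 and 111 CPM, a log2 fold change of 4.36 ± 0.74 (adjusted p = 0.0293). Its relative Mdk (midkine) stood at 916 and 988 CPM against 39.1 and 35.3 CPM in Cldn5 cells, a log2 fold change of 4.57 ± 0.62 (edgeR adjusted p = 0.000741). Both genes were also expressed by the other retained cells, with Ptn at 462 and 388 CPM and Mdk at 223 and 255 CPM. Igf2, an imprinted growth factor, was found in every set, at 980 and 840 CPM in Col3a1 cells, 191 and 117 CPM in Cldn5 cells, 2869 and 703 CPM in Rgs5 cells, and 483 and 524 CPM in Col3a1/Rgs5 cells, against 10.8 and 3.38 CPM elsewhere. Its log2 fold change between Col3a1 and Cldn5 cells of 2.47 ± 0.78 lay at the threshold (edgeR adjusted p = 0.0509), and it was called in 11 of 13 alternatives, with adjusted p from 0.000704 to 0.0584 over the 13. In the Rgs5 cells of replicate 4, 37 of 38 Igf2 UMIs lay in 1 cell, and the level was 23.9 CPM without that cell and 1533 CPM without the cell with neuron markers.

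For the pairs of Pdgfb with Pdgfrb and Angpt1 with Tek, the ligand and the receptor gene were highest in different sets. Pdgfb, which recruits mural cells, stood at 125 and 244 CPM in Cldn5 cells, where 16 of 17 cells held it, and had no UMI in Col3a1 or Rgs5 cells. Its receptor gene Pdgfrb stood at 495 and 490 CPM in Col3a1/Rgs5 cells, where all 9 held it, at 61.0 and 96.7 CPM in Col3a1 cells and at 0 in Cldn5 cells. Angpt1, a ligand that stabilises vessels, was at 237 and 41.3 CPM in Col3a1 cells and 229 and 144 CPM in Col3a1/Rgs5 cells, and at 0 in Cldn5 cells. It was found in 15 of 45 Col3a1 cells, and without 1 cell with 104 UMIs the level in replicate 2 was 75.0 CPM. Tek, which encodes its receptor, was at 488 and 390 CPM in Cldn5 cells and at 4.81 and 0 CPM in Col3a1 cells. It was also found at 36.2 and 21.1 CPM in Col3a1/Rgs5 cells, in 5 of 9 cells, so both genes of that pair occurred in this set. Of the 15 receptor genes listed, 14 could be tested, 4 of them (Acvrl1, Notch4, Flt4 and Ptprb) only with the Cldn5 cells and Ednra only with the Col3a1 cells. The 7 genes Acvrl1, Notch1, Notch4, Flt4, Nrp1, S1pr1 and Ptprb were higher in Cldn5 than in Col3a1 cells, and Ednra, an endothelin receptor of mural cells, was higher in Col3a1 cells. Ednra stood at 664 and 625 CPM in Col3a1/Rgs5 cells, 24.1 and 69.6 CPM in Col3a1 cells and 3.91 and 0 CPM in Cldn5 cells. Against Rgs5 cells, 3 of 14 receptors (Nrp1, Igf1r and Ptprb) were higher in Cldn5 cells. The Nrp1 difference, -3.83 ± 0.89 on the log2 scale (edgeR adjusted p = 0.0462), lost its call in 5 alternatives.

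**Figure D4:**
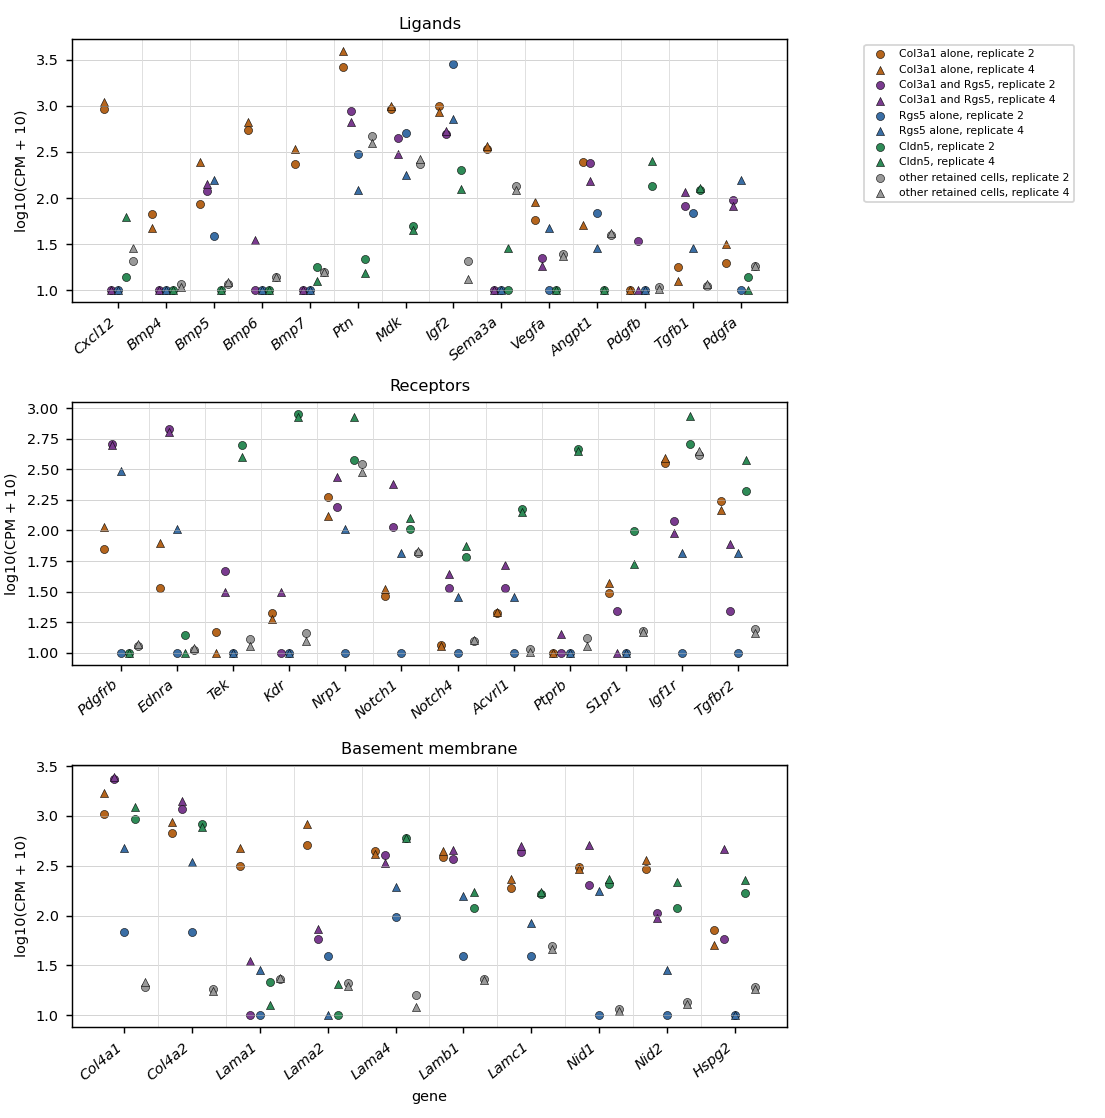
Points give log10(CPM + 10) of ligand, receptor and basement membrane genes (x axis) in each set of cells, coloured by set, with circles for replicate 2 and triangles for replicate 4. Cxcl12, Bmp6, Bmp7 and Ptn are highest in Col3a1 cells, Pdgfb, Tek, Kdr and Ptprb in Cldn5 cells, and Pdgfrb and Ednra in Col3a1/Rgs5 cells, in both libraries with all cells counted.

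Genes that handle retinoic acid were higher in Col3a1 cells. Of the 10 listed, 5 could be tested and all of those, Crabp1, Stra6, Rarb and Cyp1b1 among them, were higher than in Cldn5 cells (4 of 5 entered the test only with the Col3a1 cells), while edgeR called 0 of 5 against Rgs5 cells, with 4 of 5 at an unadjusted p under 0.05. DESeq2's Wald test called 2 of 5 there, and edgeR called 5 of 5 higher with the Col3a1/Rgs5 cells assigned. Rarb, a retinoic acid receptor whose gene is itself induced by retinoic acid, stood at 379 and 374 CPM in Col3a1 cells and at 0 and 13.6 CPM in Cldn5 cells, a log2 fold change of 5.45 ± 0.86 (edgeR adjusted p = 0.00177). Crabp1 was not found in Cldn5, Rgs5 or Col3a1/Rgs5 cells.

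The glutamate transporter gene Slc1a3, best known from radial glia and astrocytes, was present in 44 of 45 Col3a1 cells. It stood at 764 and 1045 CPM there, at 3.91 and 8.14 CPM in Cldn5 cells and at 112 and 97.2 CPM in the other retained cells. The log2 fold change between Col3a1 and Cldn5 cells was 7.04 ± 0.67 (edgeR adjusted p = 0.000228). Of the other radial glia genes listed, Hes5 had no UMI in Col3a1 cells, and Pax6 and Sox2 were found in 1 cell each. Nes, an intermediate filament gene of progenitors that other cell types also express, was found in 39 of 45 Col3a1 cells at 112 and 90.3 CPM, against 176 and 117 CPM in Cldn5 cells and 88.9 and 91.8 CPM in the other retained cells. Fabp7, a fatty acid-binding protein of radial glia, was at 54.5 and 54.2 CPM in Col3a1 cells, 522 and 130 CPM in Rgs5 cells and 326 and 266 CPM in Col3a1/Rgs5 cells, against 3.91 and 5.42 CPM in Cldn5 cells.

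Endothelial genes marked the Cldn5 cells. All 15 genes of the endothelial list other than Cldn5 were lower in Col3a1 cells, and 13 of 15 were lower in Rgs5 cells. Of the 15, 10 (Kdr, Flt1, Tek, Pecam1, Sox17, Sox18 and Erg among them) would not have reached the count level of the test without the Cldn5 cells, so their count, folds and p-values are a description and no support. Flt1 and Kdr, the receptors for vascular endothelial growth factor, were found in all 17 cells. Kdr stood at 887 and 843 CPM in Cldn5 cells and at 11.2 and 9.03 CPM in Col3a1 cells, a log2 fold change of -6.53 ± 0.56 (edgeR adjusted p = 0.00019). Pecam1, an adhesion molecule of endothelial junctions, stood at 484 and 469 CPM against 14.4 and 7.74 CPM, a log2 fold change of -5.57 ± 0.38 (edgeR adjusted p = 0.000139). Cdh5, the cadherin of endothelial junctions, was not confined to them. It stood at 449 and 328 CPM in Cldn5 cells and was also found in 22 of 45 Col3a1 cells, at 96.3 and 74.8 CPM. Ramp2, a subunit of the adrenomedullin receptor, was found in 44 of 45 Col3a1 cells at 172 and 409 CPM, against 1133 and 1288 CPM in Cldn5 cells. Between Rgs5 and Cldn5 cells its log2 fold change was -4.55 ± 0.79 (edgeR adjusted p = 0.0248). Some endothelial genes were also found in Col3a1/Rgs5 cells, Esam in 9 of 9, Emcn in 8 of 9 and Flt1 in 6 of 9. The 15 genes summed to 700 and 853 CPM there.

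Transcription factor genes of the ETS family, which act in endothelial differentiation, were higher in Cldn5 cells as well. Ets1 stood at 684 and 824 CPM in Cldn5 cells and at 81.8 and 63.2 CPM in Col3a1 cells, a log2 fold change of -3.50 ± 0.41 (edgeR adjusted p = 0.000354). Fli1 stood at 977 and 930 CPM against 52.9 and 38.7 CPM, a log2 fold change of -4.50 ± 0.52 (edgeR adjusted p = 0.000473), and Erg at 258 and 252 CPM against 4.81 and 0 CPM. Ets1 was not endothelial alone. All 9 Col3a1/Rgs5 cells held it, at 471 and 765 CPM, while Rgs5 cells had 58.0 and 111 CPM. Its log2 fold change of -3.44 ± 0.54 between Rgs5 and Cldn5 cells (edgeR adjusted p = 0.0177) shrank to -0.69, and lost its call, once the Col3a1/Rgs5 cells were assigned. The SoxF genes Sox7, Sox17 and Sox18 had no UMI in any selected cell outside the Cldn5 set, and Sox18 stood at 180 and 309 CPM within it.

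AGGAAG, an extended form of the core that ETS factors bind, was searched in the promoters of the list genes, since ETS factors and endothelial genes were higher in the same cells. RefSeq start sites on GRCm38.p6 gave 14 windows for 10 of the 16 endothelial genes, each covering the 250 bases before a start site, and 8 of 14 (57.1%) held AGGAAG on either strand. The share was 3 of 10 (30%) for fibroblast genes, 1 of 9 (11.1%) for mural genes and 9686 of 32851 (29.5%) for all windows. The 3 endothelial genes with 1 start site and 2 matches are shown 5′ to 3′ on the strand of the gene, with the matches of these 6 letters in capitals and shorter forms of the core left unmarked. They are Flt1 (chr5:147726012-147726261, minus strand), Emcn (chr3:137340828-137341077, plus strand) and Eng (chr2:32646345-32646594, plus strand). A match is a description of letters, not a measured binding site.
Flt1: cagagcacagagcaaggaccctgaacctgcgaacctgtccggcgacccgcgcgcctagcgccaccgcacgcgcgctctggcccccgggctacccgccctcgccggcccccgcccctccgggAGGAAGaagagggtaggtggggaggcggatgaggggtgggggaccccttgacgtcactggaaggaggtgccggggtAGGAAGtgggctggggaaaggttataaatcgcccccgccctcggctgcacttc
Emcn: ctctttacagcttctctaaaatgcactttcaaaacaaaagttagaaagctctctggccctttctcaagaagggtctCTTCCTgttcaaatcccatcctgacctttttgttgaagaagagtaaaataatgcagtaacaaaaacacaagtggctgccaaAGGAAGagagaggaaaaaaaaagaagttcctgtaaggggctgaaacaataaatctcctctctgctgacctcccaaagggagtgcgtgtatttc
Eng: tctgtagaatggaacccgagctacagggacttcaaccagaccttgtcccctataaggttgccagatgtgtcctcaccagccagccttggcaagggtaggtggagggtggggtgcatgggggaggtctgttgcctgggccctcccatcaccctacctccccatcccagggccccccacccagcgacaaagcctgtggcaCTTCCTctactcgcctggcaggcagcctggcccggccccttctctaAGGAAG
Flt1 stood at 1121 and 1307 CPM, Emcn (endomucin, a surface glycoprotein) at 492 and 494 CPM and Eng (endoglin, a co-receptor of transforming growth factor beta) at 399 and 328 CPM in Cldn5 cells.

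Barrier genes were present in Cldn5 cells at this stage. Of the 22 genes listed, 21 could be tested and 16, Plvap among them, were higher in Cldn5 than in Col3a1 cells. Of the 21, 10 entered the test only with the Cldn5 cells. Slc2a1, the glucose transporter of the barrier, stood at 953 and 1147 CPM in Cldn5 cells, where 16 of 17 cells held it, and at 25.7 and 10.3 CPM in Col3a1 cells, a log2 fold change of -6.02 ± 0.61 (edgeR adjusted p = 0.000271). The amino acid transporters Slc7a5 (778 and 792 CPM) and Slc38a5 (391 and 575 CPM) and the lipid transporter Mfsd2a (70.3 and 263 CPM) were likewise found there, and Slc38a5 and Mfsd2a had no UMI in Col3a1 cells. Abcg2, an efflux pump, differed less, at 551 and 496 CPM in Cldn5 cells and 73.8 and 83.8 CPM in Col3a1 cells, a log2 fold change of -2.83 ± 0.30 (edgeR adjusted p = 0.000246). Plvap, a protein of fenestrated and immature vessels, was present beside them in 14 of 17 Cldn5 cells at 62.5 and 179 CPM.

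Of the Wnt-response genes in that list, some were shared with the fibroblasts. Lef1, a nuclear effector of Wnt signalling, stood at 238 and 350 CPM in Cldn5 cells and 81.8 and 168 CPM in Col3a1 cells, a log2 fold change of -1.35 ± 0.39 (edgeR adjusted p = 0.0378) that lost its call in 2 alternatives. Apcdd1, a Wnt target and inhibitor, stood at 488 and 610 CPM against 93.1 and 143 CPM. Itm2a, a membrane protein, stood at 1375 and 1058 CPM against 359 and 343 CPM, with a log2 fold change of -1.89 ± 0.47 (edgeR adjusted p = 0.0183). Axin2, a target of canonical Wnt signalling, was the only gene of that list called higher in Col3a1 cells. It stood at 52.9 and 79.96 CPM there, at 23.4 and 21.7 CPM in Cldn5 cells and at 181 and 139 CPM in Col3a1/Rgs5 cells. Tnfrsf19, of the same list, was not called, with a median per cell of 223 CPM in Col3a1 cells and 81.4 CPM in Cldn5 cells. Against Rgs5 cells 8 of 21 barrier genes were higher in Cldn5 cells, and 0 were lower.

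Markers of vessel type were uneven between endothelial cells and between libraries. Gja4, a connexin of arterial endothelium, reached 30 to 83 UMIs in 4 of the 12 Cldn5 cells of replicate 4 and at most 3 in the other 8, while the 5 cells of replicate 2 had at most 1. The level was accordingly 7.81 CPM in replicate 2 and 645 CPM in replicate 4. One of the 4 was the cell with red blood cell transcripts. Efnb2, a ligand of arterial endothelium, had 2 to 11 UMIs in these 4 cells and 0 to 7 in the other 13. Klf2, which responds to flow, had 13 to 45 UMIs in the 4 and 0 to 31 in the others, and Aplnr, the apelin receptor of venous endothelium, 1 to 17 and 0 to 39. The ranges overlapped for all 3 of these genes. Gja5 was found in 1 Cldn5 cell and Bmx in none. Gja4 was not confined to endothelial cells. It was found in 10 of 17 Cldn5 cells, in 9 of 9 Col3a1/Rgs5 cells (at most 7 UMIs) and in 5 of 9 Rgs5 cells (at most 4). The venous genes Aplnr (371 and 222 CPM) and Nrp2 (277 and 252 CPM) were higher in Cldn5 than in Col3a1 cells (Aplnr entered the test only with the Cldn5 cells). The edgeR test called neither Nr2f2 nor Ephb4, whereas DESeq2's Wald test called Ephb4 higher in Cldn5 cells, and with the Col3a1/Rgs5 cells assigned, or without the cells with more markers of another type, edgeR called Nr2f2 higher in Col3a1 cells. Of the genes of sprouting tip cells, Apln was found in 10 of 17 Cldn5 cells, at 35.2 and 136 CPM with 28 UMIs in a single cell of replicate 4, and Dll4 in 10 of 17 at 50.8 and 70.5 CPM.

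**Figure D5:**
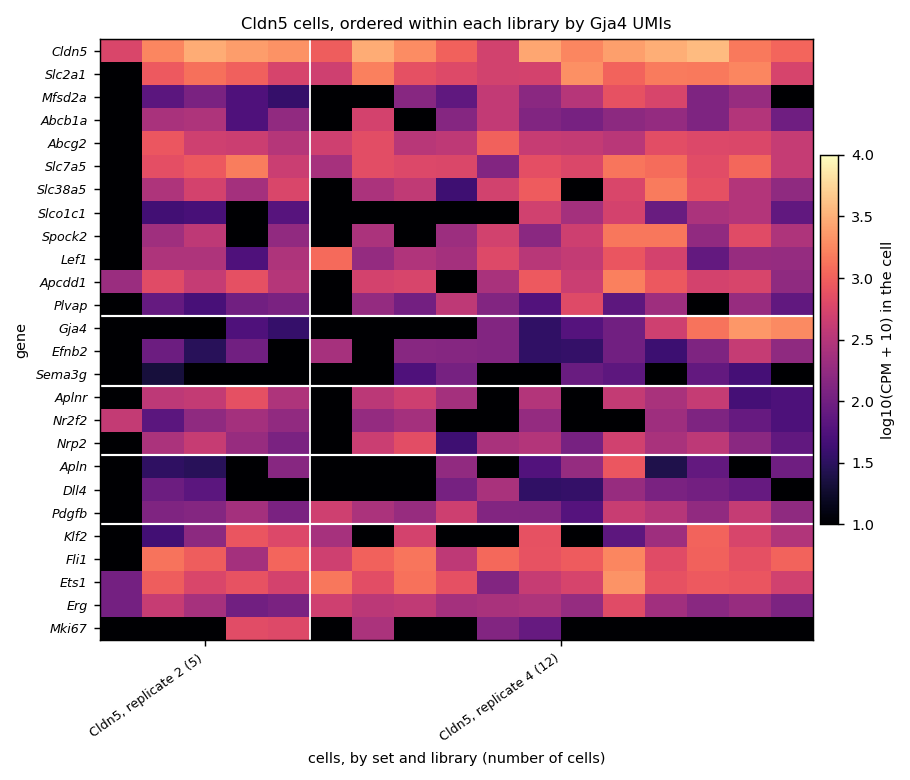
Each column is 1 of the 17 Cldn5 cells, ordered within each library by Gja4 UMIs, and colour gives log10(CPM + 10) of barrier, arterial, venous, tip cell and transcription factor genes. The 4 rightmost cells of replicate 4 stand out for Gja4 but not for Sema3g, and the leftmost cell of replicate 2 is dark for Slc2a1 and nearly all barrier genes.

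Pericyte genes were found most regularly in the Col3a1/Rgs5 cells. Kcnj8 and Abcc9, which encode the potassium channel subunits of pericytes, were present in all 9 of these cells, Kcnj8 at 423 and 401 CPM and Abcc9 at 725 and 1124 CPM. Pdgfrb and Notch3 were likewise found in all 9, Notch3 at 326 and 215 CPM. The transcription factor gene Ebf1 stood at 2379 and 4618 CPM there, against 926 and 1055 CPM in Cldn5 cells and 322 and 262 CPM in Col3a1 cells, and Tbx2 at 290 and 266 CPM. These cells lacked Dcn, Pdgfra and Cxcl12 (0 CPM in both libraries), although Col1a2 was found in all 9, at 688 and 152 CPM. Their Col3a1 counts were low, between 4 and 29 UMIs, against a range of 27 to 258 for Rgs5.

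Rgs5 cells shared part of this set. Ndufa4l2, a mitochondrial protein enriched in pericytes, stood at 725 and 814 CPM, above the 531 and 575 CPM of Col3a1/Rgs5 cells, and Kcnj8 at 203 and 222 CPM from 6 of 9 cells. Without the cell with neuron markers, the levels in replicate 4 were 1775 CPM for Ndufa4l2, 484 CPM for Kcnj8, 645 CPM for Pdgfrb and 1493 CPM for Vtn. Each was above the level of Col3a1/Rgs5 cells in that library, and Abcc9, at 928 CPM, was below it. These levels rested mostly on a single cell with 12114 UMIs. It held 26 of the 44 Ndufa4l2, 9 of the 12 Kcnj8, 10 of the 16 Pdgfrb and 29 of the 37 Vtn UMIs of Rgs5 cells in replicate 4. Ndufa4l2 and Kcnj8 entered the test only with the Rgs5 cells, so that a higher level there was built into their testing. With that limit, both were higher than in Col3a1 cells, with a log2 fold change (Col3a1 minus Rgs5) of -5.67 ± 0.65 for Ndufa4l2 (edgeR adjusted p = 0.0216) and -5.66 ± 1.13 for Kcnj8 (adjusted p = 0.0483), the latter losing its call in 3 alternatives. Pdgfrb had no UMI in the 4 Rgs5 cells of replicate 2, and in replicate 4 its 296 CPM came from 2 cells, with 5411 and 12114 UMIs. Of the 13 mural genes other than Rgs5, 12 could be tested, 6 of them (Kcnj8, Abcc9, Higd1b, Ndufa4l2, Foxs1 and Des) only with the Rgs5 cells, and 4 (Kcnj8, Abcc9, Vtn and Ndufa4l2) were higher in Rgs5 than in Cldn5 cells. With the Col3a1/Rgs5 cells assigned, 13 were tested and 12 were higher. Stmn2, a neuronal gene, was higher in Rgs5 than in Col3a1 cells (log2 fold change -4.78 ± 0.95, edgeR adjusted p = 0.0438), but 28 of its 30 UMIs in replicate 4 lay in the cell with 76 neuron UMIs. Without such cells the value was -1.90 and not called.

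Some genes of the mural list were shared with meningeal fibroblasts. Vtn stood at 751 and 1443 CPM in Col3a1 cells, 580 and 685 CPM in Rgs5 cells and 1111 and 896 CPM in Col3a1/Rgs5 cells, and had no UMI in Cldn5 cells. Tbx18, a T-box factor of mural and meningeal cells, stood at 324 and 339 CPM in Col3a1 cells and 169 and 110 CPM in Col3a1/Rgs5 cells, and had no UMI in Cldn5 or Rgs5 cells. It was called higher in Col3a1 than in Rgs5 cells. Of the mural genes, Pdgfrb, Vtn, Tbx18 and Cd248 were higher in Col3a1 than in Cldn5 cells and Mcam was lower, but Pdgfrb and Tbx18 entered the test only with the Col3a1 cells.

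Genes of contractile smooth muscle were concentrated in 1 cell. A Col3a1/Rgs5 cell of replicate 2 with 29054 UMIs held 268 UMIs of Acta2, 169 of Tagln, 110 of Mgp and 8 of Myh11, and had 110 UMIs of Rgs5 and none of Ndufa4l2. The other 8 cells of that set had at most 2 UMIs of Acta2 and 4 of Tagln. Among Rgs5 cells, 2 of replicate 2 had 4 UMIs of Acta2 each. Tagln was also found in 22 of 45 Col3a1 cells, with up to 41 UMIs in a cell and 10 or more in 4 cells. Myl9, a myosin light chain that pericytes also express, was more widespread, at 319 and 315 CPM in Rgs5 cells against 11.7 and 16.3 CPM in Cldn5 cells, a log2 fold change of 4.10 ± 0.62 (edgeR adjusted p = 0.0154).

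Basement membrane genes were higher in the mean of the 3 groups than in the rest of the tissue. In a contrast of their mean log level with the other retained cells, 697 genes were higher (7.43% of 9380) and 2030 lower (21.6%). Of the 11 basement membrane genes, 10 could be tested and 8 were higher, namely Col4a1, Col4a2, Lama4, Lamb1, Lamb2, Lamc1, Nid1 and Nid2. The median log2 fold change of that list was 4.52, against 0.02 over all genes, with genes without UMIs in a group set to the floor in both. The 9 Rgs5 cells held Col4a1 in 3 cells, Lamb2 and Nid2 in 1 cell each and Hspg2 in none. Col4a1, a type IV collagen chain, stood at 1024 and 1679 CPM in Col3a1 cells, 918 and 1231 CPM in Cldn5 cells, 58.0 and 463 CPM in Rgs5 cells and 2331 and 2467 CPM in Col3a1/Rgs5 cells, against 9.16 and 11.5 CPM elsewhere. The contrast gave a log2 fold change of 6.03 ± 0.88 for Col4a1 (edgeR adjusted p = 0.000679), 5.83 ± 0.71 for Col4a2 (adjusted p = 0.000265) and 4.82 ± 0.64 for Sparc (adjusted p = 0.00042), a collagen-binding matrix protein. Between Col3a1 and Cldn5 cells Col4a1 differed by 0.22 ± 0.73 (edgeR adjusted p = 0.897), which was within the error. Between these cells edgeR called Lama2 and Lamb1 higher in Col3a1 cells and Hspg2 higher in Cldn5 cells, of 10 genes tested, of which Lama2 and Lamb2 entered the test only with the Col3a1 cells. Lama2, a laminin chain, stood at 499 and 819 CPM in Col3a1 cells and 0 and 10.8 CPM in Cldn5 cells, whereas Hspg2, the proteoglycan perlecan, was higher in Cldn5 cells, at 160 and 220 CPM against 61.0 and 41.3 CPM. Fibrillar and other interstitial matrix genes instead followed the Col3a1 cells, with 9 of 12 higher than in Cldn5 cells and 4 of 12 higher than in Rgs5 cells (5 of the 12 entered the test only with the Col3a1 cells). With the Col3a1/Rgs5 cells assigned, the contrast with the rest gave 1793 higher and 2498 lower genes. Neural genes were lower in the groups in part by the rule, which limited 6 of them.

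Among 26 further transcription factor genes, 24 could be tested between Col3a1 and Cldn5 cells. Foxd1, Zic1, Zic2, Zic4, Heyl, Prrx1, Nr2f1 and Tbx15 were higher in Col3a1 cells, and 11, including Foxf2, Lmo2, Klf2 and Epas1 beside those already given, were higher in Cldn5 cells. Zic1, a zinc finger factor of dorsal neural tissue and meninges, stood at 406 and 564 CPM in Col3a1 cells and 15.6 and 0 CPM in Cldn5 cells, a log2 fold change of 6.11 ± 0.68 (edgeR adjusted p = 0.000281). It was also found in Rgs5 cells (145 and 241 CPM) and Col3a1/Rgs5 cells (242 and 292 CPM). Foxf2, a forkhead factor known from brain pericytes and endothelium, stood at 89.9 and 59.7 CPM in Cldn5 cells, 20.9 and 10.3 CPM in Col3a1 cells and 12.1 and 50.7 CPM in Col3a1/Rgs5 cells. Its log2 fold change between Col3a1 and Cldn5 cells was -2.38 ± 0.41 (edgeR adjusted p = 0.00278).

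Genes of DNA methylation and of interneuron signalling were also read in these cells. DNMT1 copies DNA methylation to the new strand after replication. Dnmt1 stood at 89.8 and 69.6 CPM in Col3a1 cells, 43.0 and 10.8 CPM in Cldn5 cells and 58.3 and 62.3 CPM in the other retained cells. Its log2 fold change between Col3a1 and Cldn5 cells of 1.59 ± 0.49 passed narrowly (edgeR adjusted p = 0.0463) and lost its call in 6 alternatives, the library block among them (log2 fold change 1.58). Dnmt3a, a de novo methyltransferase, stood at 164 and 143 CPM against 58.6 and 38.0 CPM, a log2 fold change of 1.59 ± 0.37 (edgeR adjusted p = 0.0133). Of the 8 genes of DNA methylation, 2 were higher and 1, Dnmt3b, was lower in Col3a1 than in Cldn5 cells, and edgeR called 0 of 8 in the other pairs of groups. Dnmt3b would not have been tested without the Cldn5 cells, where 10 of its 11 UMIs in replicate 2 lay in 1 cell (43.0 CPM with it and 6.46 CPM without), and with the Col3a1/Rgs5 cells assigned or without the cells with more markers of another type it was not tested. At an unadjusted p under 0.05 there were 0 of 8 between Rgs5 and Cldn5 cells and 1 of 8 between Col3a1 and Rgs5 cells, and DESeq2's Wald test called 0 in both. Of 5 genes of signalling by and to interneurons, Sst had no UMI in the 80 cells, and Nrxn3, Nlgn1, Epha4 and Sstr2 were lower in the 3 groups than in the other retained cells. Between the groups, edgeR and DESeq2's Wald test called 0 of these 4, with 0, 0 and 1 of 4 at an unadjusted edgeR p under 0.05. With the Col3a1/Rgs5 cells assigned, Epha4 was called lower in Rgs5 cells than in Cldn5 and in Col3a1 cells, and without the 3 cells with more markers of another type Nlgn1 was called higher in Col3a1 than in Cldn5 cells.

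Cell cycle genes varied between cells within the sets. A summed level of at least 1000 CPM over 14 cell cycle genes was reached by 6 of 15 and 7 of 30 Col3a1 cells, 2 of 5 and 3 of 12 Cldn5 cells, 3 of 4 and 3 of 5 Rgs5 cells, and 0 of 3 and 3 of 6 Col3a1/Rgs5 cells. Exact 95% confidence intervals of these shares overlapped throughout, for example 16.3 to 67.7% and 9.93 to 42.3% for Col3a1 cells. Of the 14 genes edgeR called 0 between any pair of the 3 groups, with 3, 1 and 1 at an unadjusted p under 0.05, and DESeq2's Wald test called 1 between Col3a1 and Cldn5 cells and 0 in the other pairs. With the Col3a1/Rgs5 cells assigned, edgeR called Pcna higher in Rgs5 than in Cldn5 cells. In Rgs5 cells the 14 genes summed to at most 22 UMIs in a cell and Mki67 to 1 UMI in 1 of 9, so cycling is not shown in that set.

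Beyond the lists, the called genes with the largest folds were read by a rule of level (at least 50 CPM in both libraries of the higher group). Many of them reached the count level of the test only with the group in which they were high, and having been chosen for their folds they are given as a description. This held for 6 of 10 genes chosen as higher in Col3a1 than in Cldn5 cells, 8 of 10 higher in Cldn5 than in Col3a1 cells, 6 of 10 higher in Rgs5 than in Cldn5 cells, and 1 of 10 and 4 of 10 higher in Col3a1 and in Rgs5 cells when these were compared. Among the genes below it held for all but Gpc3, Ror2, Gja1, Adamts12, Lpar1 and Igfbp7. Col3a1 cells were higher than Cldn5 cells for Gpc3, a glypican (fold at least 219), Ranbp3l (at least 138), the Wnt5a receptor gene Ror2 (at least 98.9) and Dlk1 (at least 73.2), and for the transporter genes Slc6a13 (at least 64.5) and Slc22a6 (at least 57.5). All of these had no UMI in Cldn5 cells. Cldn5 cells were higher for Cd93 (fold at least 216), Itga2 (at least 109), Gimap6 (at least 102), Vwf, the clotting factor carrier of endothelium (at least 63.4), and Nos3, the endothelial nitric oxide synthase (at least 61.2), each with no UMI in Col3a1 cells. Rgs5 cells were higher than Cldn5 cells for Gucy1a1 (at least 35.3) and Gucy1b1 (at least 21.2), the subunits of the nitric oxide receptor guanylate cyclase. Between Col3a1 and Rgs5 cells, Gja1, the gap junction protein connexin 43, was higher in Col3a1 cells (at least 19.8), as were Adamts12 (at least 17.0) and Lpar1 (at least 12.6). Rgs4, a relative of Rgs5, was higher in Rgs5 cells (at least 111), and so was Igfbp7, a vascular matrix protein, with 48 UMIs in Rgs5 cells and 27 in the far deeper Col3a1 cells.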

How the data were processed

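Cells of 2 libraries were compared (both WT). The authors prepared them with the 10x Genomics 3′ v3.1 kit and deposited raw UMI counts per gene and barcode, and the submitters' processing notes name Cell Ranger 7.0.0 and the mm10 build. Whether intronic reads were counted, and which filters preceded cell calling, is not given in the sources used here. Reads of overlapping or near-identical genes (such as Hba-a1 and Hba-a2) can be divided between them.

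The members and gene lists were chosen with earlier results of these data known. Barcodes with at least 1000 genes and at most 10% mitochondrial UMIs were retained (3182 of 4301), and the 80 cells were chosen by UMI thresholds of 9 genes, which were not tested. Scrublet (scanpy 1.11.5, Python 3.11.15) called 14 barcodes (1.16%) in replicate 2 and 15 (0.761%) in replicate 4 as doublets, 0 of them among the 80. The libraries shared 3 barcodes, 1 of them retained and 0 of them selected. UMI counts were summed per library and group, and 8 sums (3 groups and the other retained cells) entered 1 fit with edgeR 4.0.16 in R 4.3.3 (quasi-likelihood test, TMM, filterByExpr, Benjamini-Hochberg adjustment over all 9380 genes, with 0.05 as the limit for a call). The standard error of a log2 fold change was derived from its quasi-likelihood F value. Library sums, not cells, were the replicates. A gene without UMIs in a group was given a bound from a floor of 3 counts over the group (2.14 CPM in Col3a1 cells, 4.80 in Cldn5 cells and 33.9 in Rgs5 cells), and list medians use the same floor. Levels are CPM of summed counts, so the deepest cells weigh most. Shares of cells were also computed after thinning cells to 5000 UMIs, which left out 5 of the 80 cells. Confidence intervals are exact (Clopper-Pearson, 95%).

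Genes were named if they were on a list, or if they were among the 10 largest folds called in a direction, at least 50 CPM in the higher group in both libraries and the same sign in both. Some of these are not reported here. Groups with the same replicate number came from the same library, and the correlations of their deviations from the group means ranged from -0.00792 to 0.182 over 6 pairs, so that the library served as a block in an alternative only. Alternatives were DESeq2 1.42.0 (size factors and Wald test), no filter on genes, the library block, other cell filters and thresholds, assigned cells, choosing and testing on separate random parts of the UMIs, and leaving out doublets. After the data had been seen, leaving out cells with more markers of another type and cells under 0.2% mitochondrial UMIs was added. The test was tried on simulated data in which 100 genes were changed by a log2 fold of 2 and 100 by 4. Changed genes were drawn from the well expressed ones, and all genes and groups were given the same spread. Of the changed genes, 98% and 100% were recovered between Col3a1 and Cldn5 cells (9230 genes), 67% and 87% between Rgs5 and Cldn5 cells (8532 genes), and 75% and 97% between Col3a1 and Rgs5 cells (9206 genes). In the same order, 9, 9 and 11 unchanged genes were called. These shares do not give the recovery of weakly expressed genes, or that in the real Rgs5 sums, whose spread was not simulated. Promoter windows come from RefSeq on GRCm38.p6, the assembly of mm10.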

Additional observations from a re-analysis of the deposited data

Results flagged for a closer look

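Barcodes outside the retained cells also held the transcripts that chose the cells. Of the 501 barcodes of replicate 2 left out for few genes or a high mitochondrial share, 5 reached the Col3a1 threshold, 11 that of Cldn5 and 4 that of Rgs5. Of the 618 left out in replicate 4, 5 reached that of Col3a1, 12 that of Cldn5 and 1 that of Rgs5. The Cldn5 barcodes left out were shallow, with medians of 1811 and 2225 UMIs, and had median mitochondrial shares of 13.0% and 14.8%. They held medians of 21 and 11.5 UMIs of the other endothelial genes, with at least 3 in 9 of 11 and 11 of 12 barcodes. Before the neural limit, which was not applied to the barcodes left out, 7 retained cells of replicate 2 and 12 of replicate 4 reached the Cldn5 threshold, against 11 and 12 left out, and 22 and 43 reached that of Col3a1, against 5 and 5 left out. The shares of the sets among retained cells depend on these filters.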

How the results depend on the processing

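The counts of called genes (1794 for Col3a1 against Cldn5 cells, 335 for Rgs5 against Cldn5 cells, 139 for Col3a1 against Rgs5 cells and 2727 for the 3 groups against the rest) moved by over 1.5 times in the following alternatives. DESeq2's Wald test gave 2820, 1099, 643 and 4662. With all genes of at least 1 count, the last 3 comparisons gave 1031, 707 and 4703. Without the other retained cells in the fit, the first 3 gave 1116, 212 and 66. With the thresholds multiplied by 2, Rgs5 against Cldn5 cells gave 220 and Col3a1 against Rgs5 cells 88. With the Col3a1/Rgs5 cells assigned, the last 3 comparisons gave 1187, 731 and 4291. Without cells under 0.2% mitochondrial UMIs, which left Rgs5 cells in 1 library and took the spread from the other groups, Rgs5 against Cldn5 cells gave 642 and Col3a1 against Rgs5 cells 409. The replicate block gave 244 for Col3a1 against Rgs5 cells, moved no other count by over 1.5 times, and among the named folds ended the call of Dnmt1 alone. The cause of these moves was not tested. Of the genes called in the Rgs5 against Cldn5 comparison, 28.4% were higher, and this share was 52.5% with the Wald test, 39.2% with all genes, 39.6% with the block, 45.9% with assigned cells, 49.8% without cells low in mitochondrial UMIs and 15.2% without cells with more markers of another type. In Col3a1 against Rgs5 cells, 69.1%, it was 47.3%, 65.2%, 63.1%, 54.9%, 48.7% and 84.9%, and 81.8% without the other retained cells. For the 3 groups against the rest, 25.6%, it was 14.5% with all genes and 41.8% with assigned cells.

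Of 425 values of 33 named folds under alternatives, 391 kept direction and call, 23 lost the call, 11 gained it and 0 reversed, and 0 of 66 values from a single library reversed. The mean shares of retained cells were 1.38% (Col3a1 cells), 0.511% (Cldn5 cells) and 0.292% (Rgs5 cells). At most 5% mitochondrial UMIs gave 0.998% for Col3a1 and 0.273% for Cldn5 cells, and thresholds multiplied by 2 gave 0.225% for Rgs5 cells. The Rgs5 shares of replicates 2 and 4 were 0 and 0.208% without cells under 0.2% mitochondrial UMIs, 0.165 and 0.203% when chosen from a random part of the UMIs, and 0.578 and 0.507% with cells assigned. Leaving out each library gave 1.24 to 1.52%, 0.413 to 0.609% and 0.254 to 0.330%. Counts of called genes without a library had no residual degrees of freedom and were not computed. The main limits are a pair of libraries and 9 Rgs5 cells, 1 of which, with neuron markers, supplied 54.1% of the UMIs in replicate 4: a gene below 33.9 CPM could go unseen in the Rgs5 group.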
